A study of Mus musculus with 22 samples.

Results

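The genes described here are 44 genes of the cell cycle and of DNA replication, followed in mouse spinal cord after the aorta had been clamped. They were taken from a fixed list of names, and each was read from the probe set that carries its symbol alone and has the highest mean over all arrays. Of the 44 genes, 43 were found among 18193 genes measured, and Ccnb1 was not analysed here because no probe set of the annotation carries its symbol alone. They were split into 15 genes of G1/S and S phase (the Mcm2 to Mcm7 genes, Pcna, Rrm2, Tyms, Tk1, Ccne1, Ccne2, Cdc6, Cdt1 and Gmnn) and 28 genes of G2 and mitosis.

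A dividing cell first licenses and copies its DNA, with the MCM helicase, the sliding clamp PCNA and the enzymes that make deoxynucleotides, and then condenses and separates the copies with cyclin-dependent kinase 1, its cyclins, the kinetochore and the anaphase-promoting complex. The genes of the first step are commonly regulated by E2F factors. Those of the second are regulated by the DREAM and B-Myb complexes with FOXM1, which act through a short element called CHR. The CCAAT box, another promoter element, was searched for as well. In the adult cord most neurons do not divide, and division is known mainly from oligodendrocyte precursors and, after injury, from microglia, astrocytes, ependymal cells and incoming leukocytes.

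Total RNA from cord above T6 (rostral) and below it (caudal) of wild-type C57Bl/6 mice aged 10 to 12 weeks was hybridised to Affymetrix Mouse430_2 arrays. The mice had been sham-operated, or had their aorta clamped for 7.5 minutes and were sampled 24 h or 48 h later. The groups were caudal sham (3 arrays), caudal 24 h (3), caudal 48 h (4), rostral sham (4), rostral 24 h (3) and rostral 48 h (4), and arrays are called by the number in their title. Array 276, rostral, carries both times in its labels and entered no group. The labels do not say whether the arrays of a group come from separate animals, so the p-values reflect only how these samples varied, which may be technical. Values are log2 RMA signals, so a difference of 1 is a doubling. All tests were two-sided limma contrasts of group means with Benjamini-Hochberg adjustment over all 18193 genes, and a gene was called at an adjusted p under 0.05. The samples are whole tissue, so more cells that express a gene and more of its RNA per cell cannot be told apart.

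Some arrays stood apart. The mean signal of Hoxa10, Hoxc10, Hoxd10, Hoxa11 and Hoxd11, patterning genes of the lower cord, was 7.46 to 7.93 on 9 of the 10 arrays labelled caudal and 4.85 to 5.10 on 10 of the 11 labelled rostral. Both 24 h arrays numbered 283 went against their region labels, with 4.91 for the caudal label and 7.76 for the rostral label. The difference between the 5' and 3' control probe sets of Gapdh, a sign of RNA integrity, was -1.05 on caudal array 274 and -0.68 on caudal array 280, against -0.21 to 0.04 on the others. Genes of heart muscle averaged 5.78 to 6.11 on sham and 24 h arrays, 6.46 to 8.0 on caudal 48 h arrays, 9.27 to 10.64 on rostral 48 h arrays and 10.34 on array 276.

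The promoters of the mitotic genes that rose with the smallest p-values in caudal cord at 48 h are shown first, since the class shares a sequence feature that the choice of genes did not use. Each runs from 250 bases before to 30 bases after the transcript start in RefSeq on GRCm38.p6, 5' to 3' along the gene. Capitals mark CHR (TTTGAA or TTCGAA) and CCAAT matches on either strand. The promoters are of Ube2c (chr2:164769679-164769958, plus strand), Ccnb2 (chr9:70421525-70421804, minus strand), Cdc20 (chr4:118437314-118437593, minus strand) and Cenpf (chr1:189688057-189688336, minus strand).
Ube2c: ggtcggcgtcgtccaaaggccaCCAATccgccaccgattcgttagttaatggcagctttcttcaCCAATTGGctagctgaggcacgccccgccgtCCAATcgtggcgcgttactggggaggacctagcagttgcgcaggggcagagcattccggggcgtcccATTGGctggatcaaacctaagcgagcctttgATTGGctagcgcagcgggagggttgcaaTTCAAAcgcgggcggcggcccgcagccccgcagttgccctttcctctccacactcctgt
Ccnb2: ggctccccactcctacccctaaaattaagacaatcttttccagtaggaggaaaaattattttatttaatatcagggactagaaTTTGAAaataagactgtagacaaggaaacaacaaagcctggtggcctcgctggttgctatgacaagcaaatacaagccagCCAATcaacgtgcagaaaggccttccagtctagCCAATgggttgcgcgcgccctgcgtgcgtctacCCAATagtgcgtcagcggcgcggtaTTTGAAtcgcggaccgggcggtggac
Cdc20: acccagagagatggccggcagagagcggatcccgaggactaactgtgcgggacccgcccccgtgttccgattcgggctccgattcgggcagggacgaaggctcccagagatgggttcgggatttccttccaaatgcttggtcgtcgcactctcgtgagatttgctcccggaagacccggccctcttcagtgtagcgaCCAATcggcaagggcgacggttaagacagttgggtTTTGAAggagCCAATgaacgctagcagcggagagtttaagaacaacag
Cenpf: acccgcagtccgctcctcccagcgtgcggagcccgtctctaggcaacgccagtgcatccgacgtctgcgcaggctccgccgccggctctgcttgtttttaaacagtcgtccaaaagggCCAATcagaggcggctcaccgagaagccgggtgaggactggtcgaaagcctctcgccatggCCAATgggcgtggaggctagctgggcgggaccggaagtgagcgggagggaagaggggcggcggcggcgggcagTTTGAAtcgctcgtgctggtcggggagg

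Ube2c had 1 CHR beginning 29 bases before the start and CCAAT boxes at -57 and -88, with 6 CCAAT matches in all, of which a pair lies on opposite strands and overlaps. Ccnb2 had a CHR beginning 5 bases after the start, preceded by 3 CCAAT boxes at -21, -54 and -87, whose centres lie 33 bases apart. It had a further CHR far upstream, at -167. In Cdc20 the CHR began at -18 with CCAAT boxes at -8 and -53, and in Cenpf it began 3 bases after the start with CCAAT boxes at -71 and -132.

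S phase genes looked different. The promoters of Pcna (chr2:132253151-132253430, minus strand) and Mcm3 (chr1:20820283-20820562, minus strand), both higher in caudal cord at 48 h, are given for comparison over the same window, as the S phase genes with the smallest p and of the MCM helicase. Capitals mark CCAAT and E2F matches (TTCCCGC or TTCGCGC or TTGCCGC or TTGGCGC) on either strand, and neither promoter had a CHR match.
Pcna: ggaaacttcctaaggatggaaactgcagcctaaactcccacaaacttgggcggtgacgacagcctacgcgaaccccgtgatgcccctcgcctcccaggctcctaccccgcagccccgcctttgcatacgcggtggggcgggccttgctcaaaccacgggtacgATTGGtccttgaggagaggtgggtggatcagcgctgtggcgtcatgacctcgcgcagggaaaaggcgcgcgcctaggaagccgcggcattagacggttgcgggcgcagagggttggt
Mcm3: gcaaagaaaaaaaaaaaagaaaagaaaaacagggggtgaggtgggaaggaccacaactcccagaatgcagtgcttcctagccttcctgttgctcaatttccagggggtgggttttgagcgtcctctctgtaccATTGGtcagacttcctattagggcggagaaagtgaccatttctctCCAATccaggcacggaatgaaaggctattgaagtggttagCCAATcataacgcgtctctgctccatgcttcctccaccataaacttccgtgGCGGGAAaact

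Pcna had a single CCAAT match, on the opposite strand at -87. Tk1, the other S phase gene called and with a smaller p than Mcm3, had no CHR, CCAAT or E2F match. Mcm3 had 3 CCAAT matches and an E2F match that began 20 bases after the start, and another 2 E2F matches that overlap on opposite strands lay just past the printed stretch. Promoters of 36 of the 43 genes were matched (24 mitotic, 12 of S phase), and 300 bases of each were searched, to 50 bases after the start. A CHR match was present in 19 of 24 mitotic promoters (79.2%) and in 2 of 12 S phase promoters (16.7%), against 15.0% of the promoters of 14452 tested genes. It lay within 50 bases of the start in 18 mitotic promoters (75.0%) and in 0 of the 12 S phase promoters, against 3.96%. A CHR and a CCAAT match occurred together in 70.8% of mitotic, 16.7% of S phase and 6.13% of all tested promoters. E2F matches ran the other way, with 58.3% of S phase, 12.5% of mitotic and 14.2% of all tested promoters. These are letter matches and not bound sites. Among the 15 promoters of genes called in caudal cord at 48 h, 9 had a CHR, 12 a CCAAT and 2 an E2F match, and among the other 21 it was 12, 13 and 8. Of the 15 called genes 12 are mitotic and 3 of S phase.

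**Figure D1:**
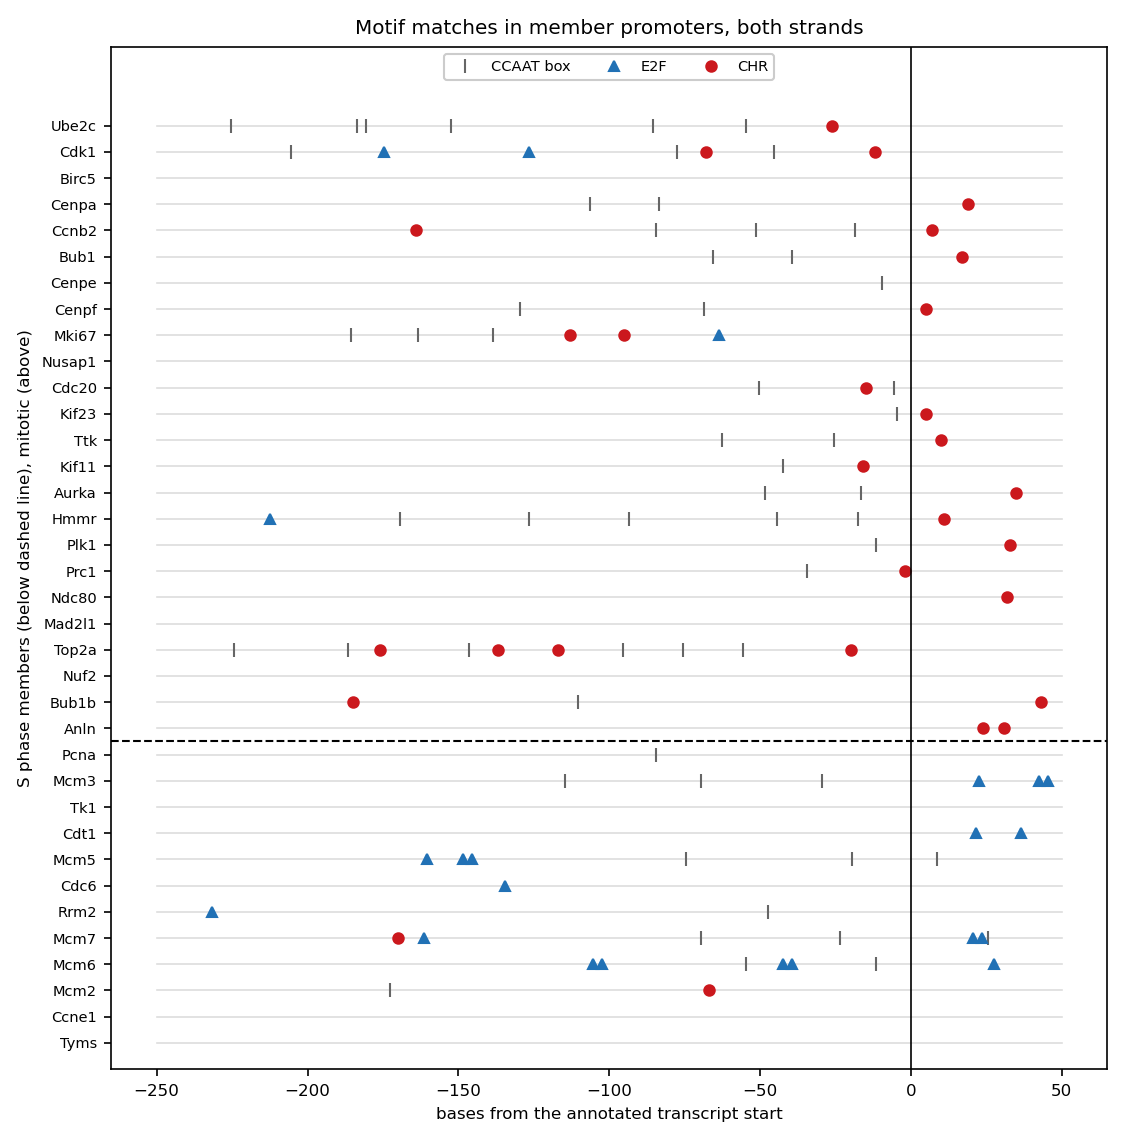
Positions of CHR, CCAAT and E2F matches on both strands in the promoters of 36 genes, in bases from the annotated transcript start (x axis), with mitotic genes above the dashed line and S phase genes below it, each ordered by the caudal 48 h difference. CHR matches of 18 of 24 mitotic promoters lie within 50 bases of the start, and none of the 12 S phase promoters has one there.

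In caudal cord 48 h after clamping, 15 of the 43 genes were higher than in caudal sham and 0 were lower, where 5.52% of all genes were called higher and 7.02% lower. Of the 28 mitotic genes 12 rose (Ube2c, Cdk1, Birc5, Cenpa, Ccnb2, Bub1, Cenpe, Cenpf, Nusap1, Cdc20, Kif11 and Prc1), and of the 15 S phase genes 3 rose (Pcna, Mcm3 and Tk1). Every 48 h array lay above every sham array for 19 of the 43 genes, 16 mitotic and 3 of S phase, against 8.9% of all genes. The median difference was 0.43 for mitotic genes and 0.16 for S phase genes, against 0.00 for all genes. The difference was above 0 in 39 of the 43 genes (90.7%), against 50.3% of all genes. At 24 h, and in rostral cord at either time, none of the 43 passed.

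The largest rise was that of Ube2c, the ubiquitin-conjugating enzyme that works with the anaphase-promoting complex. Its log2 signal was 5.42, 4.80 and 5.79 on sham arrays 278, 279 and 280, and 7.41, 6.48, 6.92 and 6.99 on 48 h arrays 271, 272, 273 and 274. Every 48 h array was thus above every sham array, with 271 highest. The means were 5.34 ± 0.50 (SD, n = 3) and 6.95 ± 0.38 (SD, n = 4), a difference of 1.62 ± 0.21 (SE, adjusted p = 8.3e-05) or 3.07-fold. On the other caudal and rostral arrays Ube2c lay between 4.70 and 5.46.

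Cdk1, the kinase that drives entry into mitosis, had 6.26, 6.05 and 6.52 in sham and 9.08, 7.05, 7.53 and 7.32 at 48 h. The groups did not overlap, and array 271 stood far above the other 3. The difference was 1.47 ± 0.31 (SE, adjusted p = 0.00498), or 2.76-fold, and 1.02 without array 271. Its partner Ccnb2, cyclin B2, had 5.39, 5.29 and 5.69 in sham and 6.24, 5.99, 6.23 and 6.57 at 48 h. Here the 48 h arrays lay close together, all above sham, with a difference of 0.80 ± 0.13 (SE, adjusted p = 0.000478). The other mitotic cyclin measured, Ccna2 (cyclin A2), had 6.68, 6.52 and 7.14 in sham and 6.92, 6.94, 7.34 and 7.98 at 48 h. Sham array 280 overlapped the 48 h range, and the difference of 0.51 ± 0.19 (SE, adjusted p = 0.0739) did not pass, although its other probe set did not overlap (0.64).

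Birc5, or survivin, belongs to the chromosomal passenger complex with the kinase Aurkb. Birc5 had 5.97, 5.64 and 6.24 in sham and 7.17, 6.29, 6.94 and 7.67 at 48 h, the lowest 48 h array being just above the highest sham array. Its difference was 1.07 ± 0.22 (SE, adjusted p = 0.00516), while that of Aurkb was 0.43 ± 0.16 with overlapping groups (adjusted p = 0.0755). Genes of the centromere and kinetochore, the attachment point of spindle fibres, divided in the same way. Cenpa, the centromeric histone, differed by 0.82 ± 0.18 (adjusted p = 0.00787), the kinetochore motor Cenpe by 0.71 ± 0.15 (0.00427) and Cenpf by 0.69 ± 0.14 (0.0037), while the NDC80 complex subunits Ndc80 (0.20 ± 0.10) and Nuf2 (0.14 ± 0.16) did not pass.

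Cenpe had 5.13, 5.32 and 5.46 in sham and 5.73, 6.01, 6.14 and 6.19 at 48 h. Cenpa had 5.40, 5.09 and 5.34 in sham and 6.77, 5.85, 6.00 and 5.75 at 48 h, again with array 271 highest, and the groups of both genes did not overlap. Of the spindle checkpoint genes, which hold anaphase until all chromosomes are attached, Bub1 rose by 0.74 ± 0.16 (adjusted p = 0.00555). Its signal was among the dimmest, with 3.87, 3.73 and 3.97 in sham and 4.80, 4.02, 4.54 and 5.04 at 48 h, and array 272 was only just above sham. Ttk (0.43 ± 0.19), Mad2l1 (0.19 ± 0.10) and Bub1b (0.10 ± 0.18) did not pass. Cdc20, the activator that the checkpoint restrains, had 6.02, 6.11 and 6.14 in sham and 6.90, 6.56, 6.60 and 6.56 at 48 h, a rise of 0.56 ± 0.10 (adjusted p = 0.00154) with a clear gap between the groups.

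Among spindle and cytokinesis genes Nusap1, a microtubule-bundling protein, rose by 0.60 ± 0.14 (adjusted p = 0.00995), the motor Kif11 by 0.41 ± 0.12 (0.0383) and the midzone protein Prc1 by 0.25 ± 0.08 (0.0462). Kif11 is the called gene whose groups overlapped, with 5.73 on sham array 280 against 5.61 and 5.67 on 48 h arrays 273 and 272. The motors Kif23 (0.47 ± 0.16) and Kif20a (0.19 ± 0.09), the mitotic kinases Plk1 (0.32 ± 0.10, adjusted p = 0.0513) and Aurka (0.35 ± 0.13), its activator Tpx2 (0.41 ± 0.22) and Hmmr (0.33 ± 0.13) did not pass. Tpx2 was 7.95 on array 271 and 6.64 to 6.71 on the other 48 h arrays, within the sham range of 6.31 to 6.75. Anln, an actin-binding scaffold of the cleavage furrow that is also found in myelin, was the mitotic gene with a difference below 0 (-0.22 ± 0.29). It was among the brightest of all 43, with 10.98 to 11.13 in sham and 9.59, 10.91, 11.46 and 11.42 at 48 h, so that array 271 alone lay far below sham.

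Mki67 and Top2a, both used as markers of proliferation, were not among the genes called. Mki67, the Ki-67 antigen, had 5.87, 5.43 and 6.55 in sham and 5.39, 6.47, 6.78 and 7.6 at 48 h, a difference of 0.61 ± 0.34 (SE, adjusted p = 0.205). Array 271, the highest for Cdk1 and Ube2c, was the lowest here, and sham array 280 lay inside the 48 h range. Without caudal arrays 271, 274 and 280 Mki67 differed by 0.98 and passed (adjusted p = 0.00299). That fit drops the lowest and the highest 48 h value and the highest sham value of Mki67, and it called 25.6% of all genes in this comparison. Top2a, topoisomerase II alpha, gave a difference of 0.15 ± 0.12 (adjusted p = 0.343) with the brightest of its 3 probe sets. Another of its probe sets gave 5.26, 4.76 and 5.97 in sham and 5.76, 6.61, 7.0 and 7.71 at 48 h, a difference of 1.44 in which array 271 overlapped sham, and the third gave 0.14. With the mean of the 3 probe sets Top2a differed by 0.58 and passed (adjusted p = 0.00427).

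**Figure D2:**
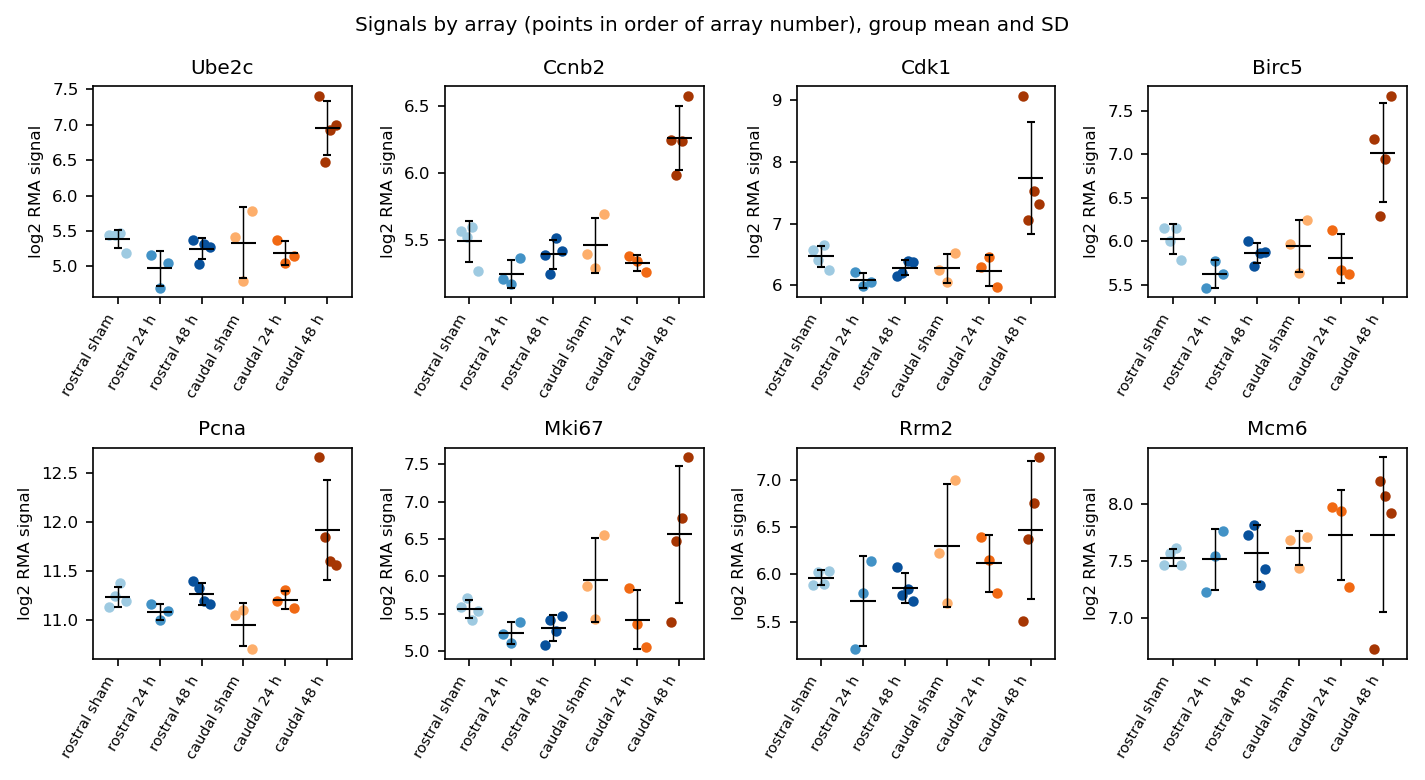
Log2 RMA signal (y axes) of 8 genes on each array by group, with points in order of array number and black bars for the group mean and SD. All 4 caudal 48 h arrays lie above caudal sham for Ube2c, Ccnb2, Cdk1, Birc5 and Pcna, while for Mki67, Rrm2 and Mcm6 array 271 is lowest of the 4 and the groups overlap.

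Of the S phase genes, Pcna, the clamp that holds DNA polymerase on its template, rose most. It had 11.05, 11.11 and 10.71 in sham and 12.66, 11.85, 11.60 and 11.56 at 48 h. The groups were clearly apart, and array 271 was highest. The difference was 0.96 ± 0.18 (SE, adjusted p = 0.00266), or 1.95-fold, and Pcna was one of the brightest genes of the list. Tk1, the thymidine kinase of the salvage pathway, had 5.36, 5.29 and 5.51 in sham and 6.24, 5.55, 5.69 and 6.02 at 48 h. Array 272 was just above the highest sham array, and the difference was 0.49 ± 0.13 (SE, adjusted p = 0.0181).

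The MCM genes, whose products form the replicative helicase together, did not move as a block. Mcm3 had 6.54, 6.50 and 6.67 in sham and 7.10, 6.79, 7.09 and 7.6 at 48 h, a rise of 0.57 ± 0.16 (SE, adjusted p = 0.0258) without overlap. The other 5 did not pass: Mcm5 differed by 0.41 ± 0.24, Mcm4 by 0.15 ± 0.21, Mcm7 by 0.14 ± 0.15, Mcm6 by 0.12 ± 0.26 and Mcm2 by 0.02 ± 0.12. Mcm6 had 7.69, 7.44 and 7.72 in sham and 6.73, 8.21, 8.08 and 7.92 at 48 h, so that 3 arrays lay above sham and array 271 below it. Mcm4 showed the same pattern, with 8.25 to 8.34 in sham and 7.6, 8.92, 8.54 and 8.72 at 48 h.

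The licensing factor Cdt1 differed by 0.44 ± 0.18 (adjusted p = 0.103) and its partner Cdc6 by 0.19 ± 0.10, while Gmnn, or geminin, the inhibitor of Cdt1, was at -0.23 ± 0.19. Gmnn was 6.81 on array 271, 7.15 on 272, 7.49 on 273 and 8.10 on 274, against 7.59 to 7.66 in sham, so the 48 h arrays lay on both sides. Rrm2, a subunit of ribonucleotide reductase, had 6.22, 5.70 and 7.0 in sham and 5.51, 6.37, 6.75 and 7.24 at 48 h, and its difference of 0.16 ± 0.32 was well within the spread. Thymidylate synthase, Tyms (-0.09 ± 0.11), and the E cyclins Ccne1 (-0.05 ± 0.10) and Ccne2 (0.24 ± 0.21) did not pass either.

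**Figure D3:**
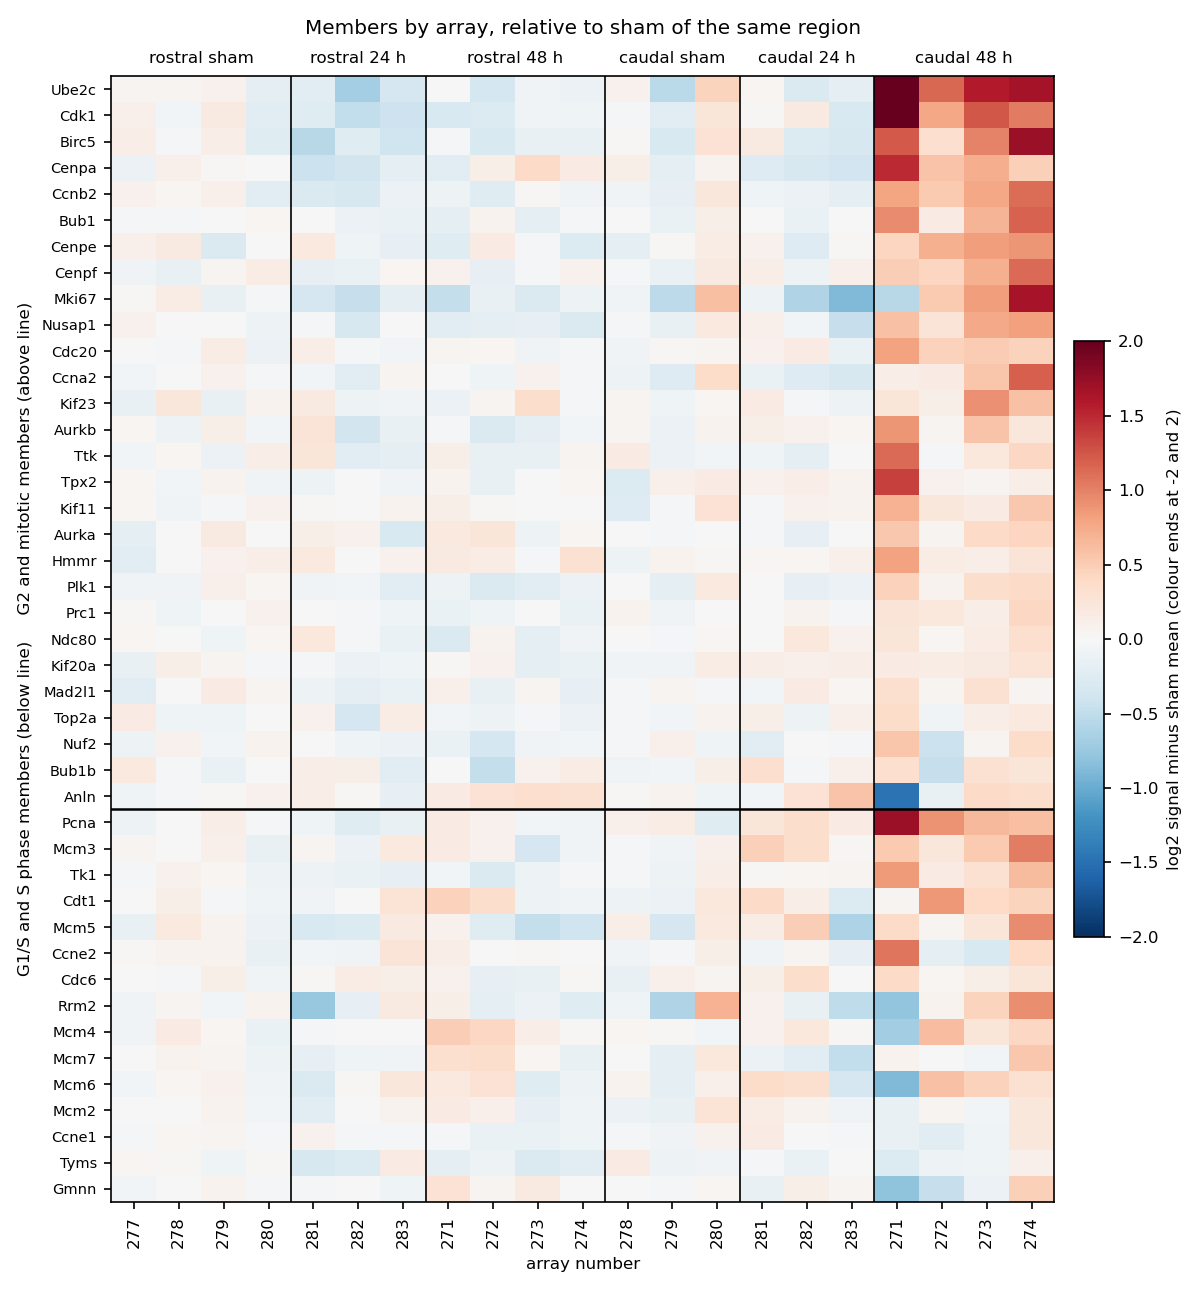
Log2 signal of 43 genes (rows, mitotic above the line and S phase below, each ordered by the caudal 48 h difference) on 21 arrays (columns, by group) minus the mean of the sham arrays of the same region, with colours that end at -2 and 2. The 4 caudal 48 h columns are mostly above sham. Among them array 271 is below the sham mean for Mki67, Anln, Rrm2, Mcm4, Mcm6, Gmnn, Mcm2, Tyms and Ccne1. Other columns are below it for some of these too, such as array 272 for Gmnn and Anln.

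Arrays of the caudal 48 h group differed among themselves. On array 274, 40 of 43 genes were above all 3 sham arrays (93.0%, against 34.7% of all genes), on 273 it was 33 (76.7%, 27.6%), on 271 it was 31 (72.1%, 50.6%) and on 272 it was 22 (51.2%, 27.2%). For mitotic genes these counts were 27, 25, 25 and 16 of 28, and for S phase genes 13, 8, 6 and 6 of 15. On array 271, 7 of 15 S phase genes were below all sham arrays (46.7%), close to the 41.0% of all genes that were. Within sham, array 280 had 31 of 43 genes above both other sham arrays (72.1%, against 42.0% of all genes).

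**Figure D4:**
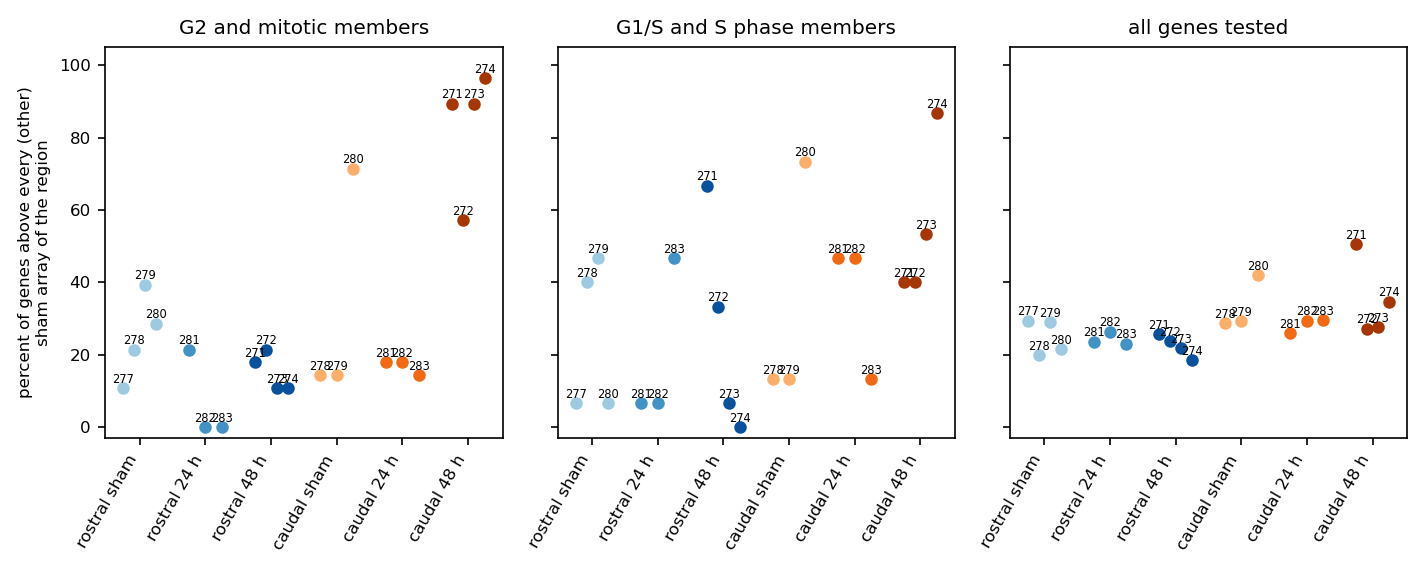
Share of genes (y axis, percent) that are above every sham array of the same region on each array (numbered points), for sham arrays above every other sham array, among 28 mitotic genes, 15 S phase genes and all genes tested. Caudal 48 h arrays 271, 273 and 274 lie at 89.3%, 89.3% and 96.4% for mitotic genes, and caudal sham array 280 lies at 71.4% for mitotic and 73.3% for S phase genes.

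The arrays with the strongest signal also differed in markers of other cells, whose part in these results was not tested. Counts of markers that rose are to be read against the 5.52% of all genes called higher in caudal cord at 48 h. Genes of monocytes and macrophages averaged 7.23, 7.12 and 7.43 on caudal sham arrays 278, 279 and 280 and 10.07, 9.19, 8.85 and 8.42 on 48 h arrays 271 to 274, and 7 of 10 rose (Cd14, Fcgr1, Cybb, Cd68, Msr1, Plac8 and F13a1). Array 274, on which the most cell cycle genes were above sham, was the lowest of the 4 here. Genes of marrow progenitors, cells that divide in blood-forming tissue, averaged 6.93, 6.66 and 7.50 in sham and 7.43, 6.67, 6.74 and 7.31 at 48 h, so arrays 280, 271 and 274 were highest, and 1 of 7 rose (Cd34). Erythroid genes averaged 5.46, 5.24 and 6.23 in sham and 6.17, 5.34, 5.53 and 5.95 at 48 h, with the same 3 arrays highest and none of 5 passing with limma (1 at an unadjusted p under 0.05). Neutrophil genes averaged 7.45 to 8.78 in sham and 7.85 to 9.52 at 48 h, and 1 of 9 rose (Mmp8).

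Marker lists of cord cells differed in direction, in a comparison where 5.52% of all genes were called higher and 7.02% lower. Of 7 genes of oligodendrocyte precursors 3 fell (Gpr17, Olig2 and Cspg4), and their mean was 9.36 to 9.40 in sham and 8.10 to 9.15 at 48 h. Of 6 ependymal genes 4 fell, of 8 microglia genes Fcrls and Olfml3 rose and Sall1 fell, and of 8 astrocyte genes Gfap and Sox9 rose and Fgfr3 fell. Microglia genes averaged 8.16 to 8.34 in sham and 8.37, 7.95, 8.38 and 8.44 on 48 h arrays 271 to 274, and astrocyte genes 11.21 to 11.22 in sham and 10.69, 11.39, 11.45 and 11.35 at 48 h. Both lists were thus above sham on 3 of the 4 arrays, without 272 for microglia and without 271 for astrocytes. Genes of Schwann cells, the glia of nerve roots, averaged 8.27 to 8.34 in sham and 8.44 to 8.95 at 48 h, and 1 of 4 rose (Pou3f1). Genes of mural cells and fibroblasts averaged 10.25 to 10.53 in sham and 9.69 to 10.00 at 48 h. Endothelial genes averaged 8.56 to 8.68 and 7.59 to 8.59, and genes of cord neurons 11.10 to 11.22 and 10.20 to 11.16. Array 271 was the lowest 48 h array for each of these last lists. A fit without caudal arrays 271, 274 and 280, which share the higher marrow or the lower 5' values, kept caudal sham arrays 278 and 279. Of the caudal 48 h arrays it kept 272 and 273. In caudal cord at 48 h it called 25.6% of all genes in either direction, and 17 of the 43 genes higher. Ube2c (1.59), Cdk1 (1.14), Ccnb2 (0.77) and Pcna (0.65) were among them, Mki67, Ccna2, Cdt1 and Plk1 passed in addition, and Mcm3 and Prc1 no longer did.

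The count of 15 depends on how the spread is estimated. In a fit of the 7 caudal sham and 48 h arrays alone, limma called 0 of the 43 (142 of all genes), with an adjusted p of 0.0514 for Ube2c. In that fit 13 of the 43 had an unadjusted p under 0.05, against 24 in the fit of all groups. The count was 9 without sham array 279 and 10 without sham array 278, and 9 genes were called whichever array was left out (Ube2c, Cdk1, Birc5, Ccnb2, Bub1, Cenpe, Cenpf, Cdc20 and Pcna). Without sham array 279 Cenpa, Nusap1, Tk1, Mcm3, Kif11 and Prc1 lost their calls, without 278 the same genes did except Cenpa, without 280 Mcm3 and Prc1 did, without 48 h array 271 Kif11 did, and without 272 or 274 Prc1 did. Low signal is a further limit: 32 of the 43 genes had a caudal sham mean below the median of all probe sets on every array (6.79 to 6.88), and 17 of 28 mitotic genes were below it on all 22 arrays.

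Other probe sets of the same genes mostly went the same way. Of 51 further probe sets of 28 genes, 45 had the sign of the one used in caudal cord at 48 h. Among the 15 genes called, 9 had 16 further probe sets, of which 14 shared the sign, and a probe set of Cenpa (-0.03) and of Nusap1 (-0.09) did not.

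In rostral cord at 48 h the same comparison with sham gave no call among the 43 genes, where 0.61% of all genes were called with limma, and none had an unadjusted p under 0.05. The median difference was -0.05, and the values ran from -0.26 (Mcm5) to 0.28 (Anln). The groups did not overlap for 1 gene that was higher, Anln (4.63% of all genes), and for 3 that were lower (7.46%). Ube2c had 5.44, 5.44, 5.46 and 5.19 in rostral sham and 5.38, 5.03, 5.31 and 5.27 at 48 h, and Cdk1 had 6.25 to 6.65 and 6.16 to 6.40. Both genes overlapped between the groups, with differences of -0.14 ± 0.19 and -0.19 ± 0.28. Pcna was at 11.14 to 11.38 in sham and 11.16 to 11.40 at 48 h. These rostral 48 h arrays are those with high heart muscle genes, of which 11 of 12 rose, and what share this had in the values was not tested.

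**Figure D5:**
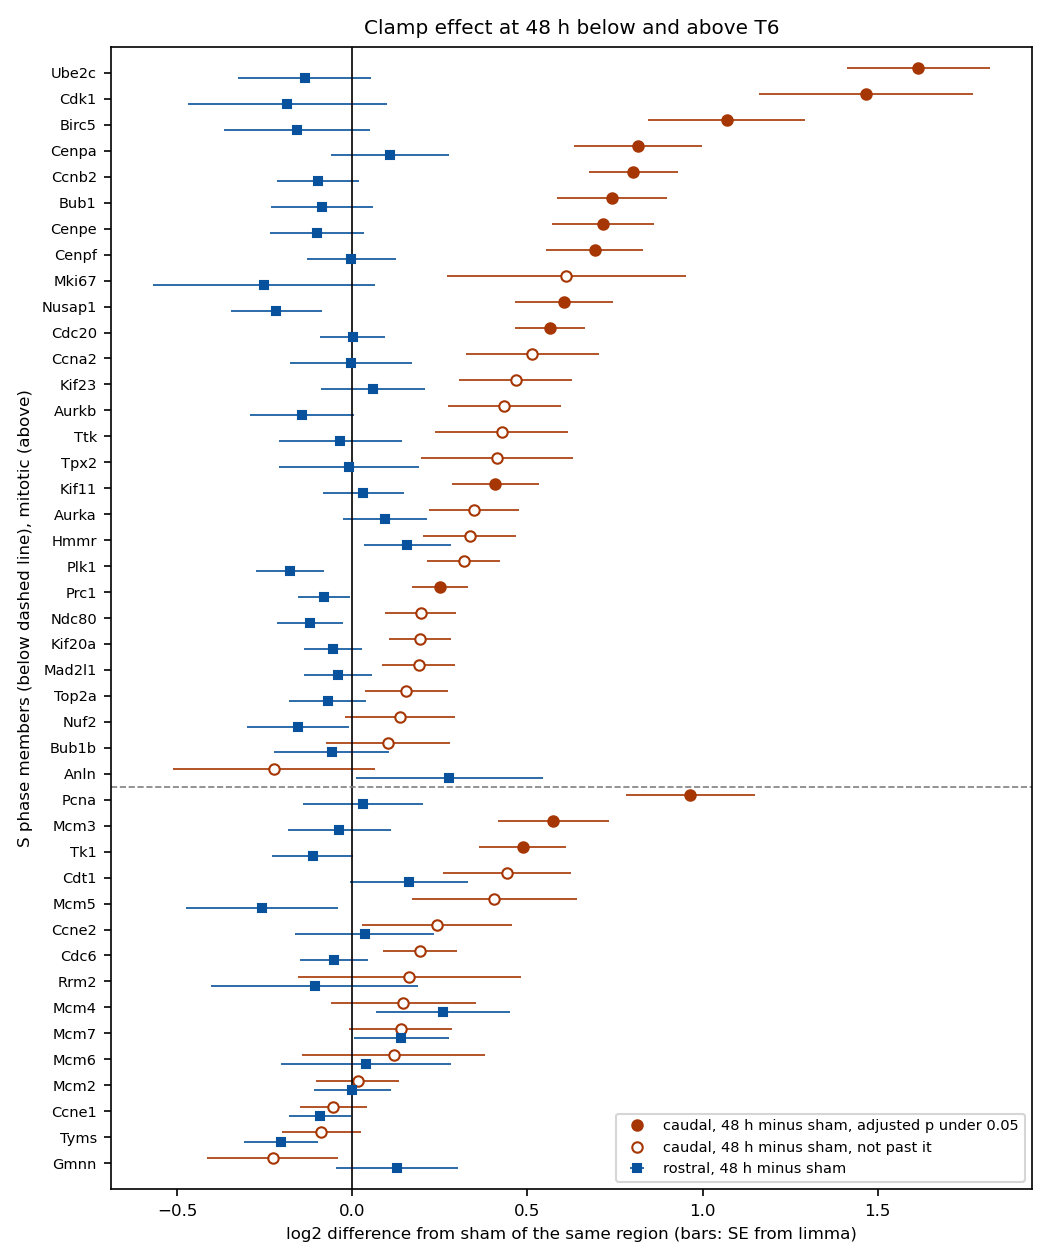
Log2 difference between 48 h and sham (x axis) for 43 genes in caudal (circles, filled where the adjusted p is under 0.05) and rostral cord (squares), with bars for the SE from limma. Caudal differences run from -0.23 to 1.62 and rostral ones from -0.26 to 0.28, and the 15 filled circles are 12 mitotic and 3 S phase genes.

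The difference between the regions in the 48 h effect was tested directly. Ube2c (1.75 ± 0.28, adjusted p = 0.00366) and Ccnb2 (0.90 ± 0.17, adjusted p = 0.0177) rose more in caudal than in rostral cord, where 0.561% of all genes differed in either direction. Another 16 genes had an unadjusted p under 0.05 without passing, among them Nusap1 (0.82 ± 0.19, adjusted p = 0.0603), Cenpe (0.82 ± 0.20, 0.0751), Cdc20 (0.56 ± 0.14, 0.0755) and Birc5 (1.23 ± 0.31, 0.0839). For Pcna the difference was 0.93 ± 0.25 (adjusted p = 0.118), and no S phase gene passed. Ccnb2 lost its call without caudal sham array 278 (adjusted p = 0.0711) or 279 (0.0821), which left 1 gene. The count rose to 8 without caudal 48 h array 271 (1.17% of all genes called), 7 without 272 (0.577%) and 10 without 274 (4.53%). Nusap1 passed in each of these (adjusted p = 0.0436, 0.0159 and 0.034). Without caudal arrays 271, 274 and 280 together the count was 14 (4.88% of all genes), among them Cdk1, Birc5, Mki67 and the S phase genes Pcna and Tk1.

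Between caudal and rostral cord in sham, the limma fit of all groups called none of the 43 genes (0.335% of all genes called, none of the 43 with an unadjusted p under 0.05). At 48 h it called 21 genes, 20 higher and 1 lower in caudal cord, where 5.57% of all genes were higher and 4.14% lower. These were 16 mitotic genes, led by Ube2c (1.70 ± 0.19, adjusted p = 2.77e-05), Ccnb2 (0.87 ± 0.12, 0.000195) and Cenpe (0.80 ± 0.13, 0.00116), and 4 S phase genes, Tk1 (0.49 ± 0.12, 0.0126), Pcna (0.65 ± 0.17, 0.022), Mcm5 (0.72 ± 0.22, 0.0437) and Mcm3 (0.48 ± 0.15, 0.0474). Mki67 (1.25 ± 0.32, 0.0177), Ccna2 (0.77 ± 0.17, 0.00989), Plk1 (0.47 ± 0.10, 0.00483) and Kif23 (0.48 ± 0.15, 0.0475) passed here, whereas against caudal sham they had not. Anln was lower in caudal cord (-0.90 ± 0.27, adjusted p = 0.0393), with 9.59 to 11.46 against 11.63 to 11.81 on rostral arrays. It was lower there in sham too, with 10.98 to 11.13 against 11.38 to 11.56 on rostral arrays. A limma fit of the sham arrays alone, which called 4.59% of all genes, called Anln. Groups did not overlap for 17 genes that were higher and for 1 that was lower in caudal cord, against 5.23% and 6.26% of all genes.

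The 21 calls included 13 that held whichever of the 8 arrays was left out. Anln, Mcm5, Mcm3 and Kif11 lost their calls without rostral array 272, 273 or 274, and Kif23 without rostral 271, 272 or 274. Pcna lost its call without rostral array 273 or 274 (adjusted p = 0.0708 and 0.067), Cenpa and Anln without rostral 271 (0.0537 and 0.0623) and Mki67 without rostral 273 (0.0533). Of the caudal arrays, leaving out 271 ended the calls of Kif11 and Mcm5, 272 that of Anln, 273 that of Kif23, and 274 those of Mcm5, Mcm3 and Kif23. In a fit of these 8 arrays alone 2 of the 43 were called.

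At 24 h none of the 43 genes passed in either region. In caudal cord the median difference from sham was 0.01, with 0 of 43 genes called by limma and 0 with an unadjusted p under 0.05, where 0.0055% of all genes were called. The values ran from -0.53 (Mki67) to 0.29 (Mcm3). Ube2c had 5.38, 5.05 and 5.14 on arrays 281, 282 and 283, within the sham range, and Pcna had 11.20, 11.31 and 11.12, each just above the highest sham value of 11.11. Mcm3 had 7.05, 6.93 and 6.60, with 281 and 282 above sham and 283, the array whose Hox genes oppose its label, within it. In rostral cord at 24 h the median was -0.05, 0 of 43 genes were called by limma and 0 had an unadjusted p under 0.05, and 0% of all genes were called. Ube2c was at 5.17, 4.70 and 5.05 there, all below the rostral sham arrays (-0.41 ± 0.21, adjusted p = 1), as was the case for 6 of the 43 genes and 4.35% of all genes. Without both arrays numbered 283 limma again called 0 in each region, with 1 gene at an unadjusted p under 0.05.

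Between 24 h and 48 h in caudal cord 14 genes rose and 0 fell, where 4.24% of all genes were higher and 2.45% lower. They were the S phase genes Pcna (0.71 ± 0.18, adjusted p = 0.0267) and Tk1 (0.45 ± 0.13, 0.0372) and 12 mitotic genes, among them Ube2c (1.76 ± 0.21, 0.000144), Cdk1 (1.5 ± 0.31, 0.00613), Birc5 (1.21 ± 0.22, 0.00328), Cenpa (1.14 ± 0.18, 0.00131), Ccnb2 (0.93 ± 0.13, 0.000464), Ccna2 (0.75 ± 0.19, 0.0228) and Plk1 (0.42 ± 0.10, 0.0224). Mki67 differed by 1.14 ± 0.34 (adjusted p = 0.0521), from 5.85, 5.36 and 5.06 at 24 h. The groups did not overlap for 20 genes that were higher, against 5.91% of all genes. This comparison uses the same 48 h arrays as the one with sham, so the 2 are not independent. Without both arrays numbered 283 only Ube2c, Ccnb2, Cenpa and Cenpe were called, 7 genes were called without caudal array 283 and 9 without caudal array 282, and in a fit of these 7 arrays alone limma called 0 (16 at an unadjusted p under 0.05). In rostral cord limma called 0 of 43 between 24 h and 48 h (1 at an unadjusted p under 0.05, and 0.363% of all genes called).

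Other genes of the same pathway were read from lists chosen by function, with earlier results of these data known, and their counts are to be read against the 5.52% of all genes called higher and 7.02% called lower in this comparison. In caudal cord at 48 h 9 of 30 further mitotic genes rose and none fell, with a median of 0.28. They included Cep55, needed for the last cut between daughter cells (0.97 ± 0.14, adjusted p = 0.000236), the mitotic kinase Pbk (0.97 ± 0.21, 0.00589), Aspm of the spindle poles (0.57 ± 0.14, 0.0136) and Cdca3 (0.53 ± 0.12, 0.0105), next to Cdca8, Spc24, Spc25, Dlgap5 and Kif22. Cep55 also rose more in caudal than in rostral cord (0.93 ± 0.19, adjusted p = 0.0304). Of 26 further replication genes 2 rose, Gins1 of the helicase (0.76 ± 0.18, 0.00979) and the flap endonuclease Fen1 (0.40 ± 0.13, 0.0451), with a median of 0.10. That share is close to the one over all genes.

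Some genes that restrain the cycle also rose, where 5.52% of all genes did. Of 16 genes for CDK inhibitors and quiescence 7 rose in caudal cord at 48 h: Gadd45b (2.38 ± 0.45, adjusted p = 0.00242), Btg2 (1.91 ± 0.23, 5.42e-05), Gadd45a (1.36 ± 0.26, 0.00263), Btg1 (0.72 ± 0.14, 0.00388), Cdkn1a, the inhibitor p21 (1.85 ± 0.41, 0.00744), Ccng1 (0.42 ± 0.13, 0.0371) and Gadd45g. Cdkn1a went from 9.93 ± 0.17 (SD, n = 3) to 11.78 ± 0.82 (SD, n = 4). In rostral cord, where no gene of the division list passed, Cdkn1a (1.82 ± 0.38, 0.0298) and Ccng1 (0.73 ± 0.12, 0.00293) rose, and their regional difference did not pass (adjusted p = 0.973 and 0.425).

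Of 13 genes for G1 cyclins, CDKs and regulators of CDKs, 3 rose and 1 fell. Cdk6 (0.60 ± 0.14, adjusted p = 0.0115), the CDK subunit Cks1b (0.68 ± 0.22, 0.0476) and the phosphatase Cdc25c (0.31 ± 0.10, 0.0489) were higher, and Cdc25b (-0.35 ± 0.09, 0.0153) was lower. Of 19 transcription factor genes Myc rose (1.68 ± 0.35, 0.00498), and E2f6 (-0.70 ± 0.13, 0.00183) and Tfdp2 (-0.65 ± 0.19, 0.0364), a repressor of the E2F family and an E2F partner, fell. For transcription factors these shares are near the 5.52% and 7.02% of all genes called higher and lower.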

How the data were processed

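The deposited values are log2 signals of 22 arrays, made by the authors with RMA, per the submitters' processing notes. RMA sets all arrays to a like distribution, so array medians were 6.79 to 6.88 and a shift of all genes would not be seen. Of 45101 probe sets, 64 were controls, 34945 had 1 gene symbol, 932 several and 9160 none. Each of 18193 genes was read from its probe set with the highest mean. Group means of 21 arrays were fitted with limma 3.58.1 in R 4.3.3 (6 groups, 1 shared spread, moderated by eBayes with 18.7 degrees of freedom, Benjamini-Hochberg adjusted p under 0.05). The procedure was tested on simulated data that gave each gene the same spread in every group. Groups of unequal spread were therefore not covered by that test. Promoters were searched with Python 3.11.15 in RefSeq sequences of GRCm38.p6. Genes and lists were chosen with earlier results of these data known. Named with values are genes past the adjusted p, those with the largest changes in each class and, from each other list, up to 4 genes with the smallest p in a comparison. Alternatives were the mean of probe sets, quantile normalisation, centring, brighter genes only, trended and array-weighted fits, fits of the groups compared alone, replicate blocks, placing array 276 in a group and leaving arrays out.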

Additional observations from a re-analysis of the deposited data

Results flagged for a closer look

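The 48 h effect differed between caudal and rostral cord for Ube2c, by 1.75 on the log2 scale, and for Ccnb2, by 0.90, as tested by the contrast of both effects in limma. Cdc20, the activator of the anaphase-promoting complex, was 6.90 on caudal 48 h array 271 and 6.56, 6.60 and 6.56 on the other 3 arrays of its group. Ube2c was 5.19 on rostral sham array 280 and 5.44, 5.44 and 5.46 on the other rostral sham arrays. These are the 2 values that stood apart in 51 sets of 4 arrays examined, and chance alone gives about 1 in 20. The sets were those of the genes called in caudal cord at 48 h and of the means of both classes. Genes not called there were not examined in this way. On array 276, which entered no comparison, the centromere genes Cenpf (5.82) and Cenpa (5.43) lay above the highest rostral sham array, at 5.78 and 5.41. In all, 7 of the 43 genes lay above every rostral sham array there (16.3%), against 26.7% of all genes.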

How the results depend on the processing

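No gene called in a comparison changed direction under the alternatives run, while medians close to 0 (both regions at 24 h, rostral cord at 48 h and the regions in sham) took either sign in at least 1 class. For caudal 48 h against sham, the count of 15 became 1 of the 5 genes kept among brighter genes only, 25 with array weights and 0 in a limma fit of the groups compared alone (13 at an unadjusted p under 0.05), and ran from 9 to 20 when 1 array was left out. Array weights called 34.3% of all genes in this comparison. The mitotic median was 0.31 with the mean of probe sets and 0.30 to 0.57 without 1 array, and the S phase median 0.055 to 0.36. For caudal 48 h against 24 h, 14 became 1 among brighter genes, 0 in the groups alone (16 unadjusted) and 4 without both arrays 283, and ran from 7 to 17 without 1 array. Its medians with the mean of probe sets were 0.11 (S phase, 0.082 to 0.32 without 1 array) and 0.32 (mitotic). For caudal against rostral cord at 48 h, 21 became 2 among brighter genes and 2 in the groups alone, and ran from 15 to 23 without 1 array. Where 0 genes were called, the groups alone gave 1 for rostral 48 h against sham (Anln) and 1 for the regions in sham (Anln), and array weights gave 2 for the regions in sham (Anln, Kif20a) and 1 for rostral 48 h against 24 h (Cenpa).

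The regional difference of the 48 h effect, with 2 genes, gave 1 after repeated quantile normalisation, 4 with centred arrays, 0 among brighter genes (1 unadjusted), 18 with array weights, 1 in the groups alone, 4 with array 276 as rostral 48 h, 14 without caudal arrays 271, 274 and 280 and 1 to 10 without 1 array. Of all genes, array weights called 7.49% and the fit without caudal arrays 271, 274 and 280 called 4.88%. The mitotic median of the regional difference was 0.36 with the mean of probe sets, and its S phase median 0.052 to 0.26 without 1 array. With the array number as a replicate block it gave 6 (random) and 1 (fixed), and the random block changed no other count by over 1.5 times. Deviations of same-numbered rostral and caudal arrays from their group means correlated at 0.25 to 0.53 for the 4 numbers of the 48 h groups, at 0.087 to 0.28 for the 3 of sham and at -0.19, -0.03 and -0.45 for 281, 282 and 283, and 13 of 20 arrays correlated best with their own number. The negative values are all of 24 h numbers. Their group means include the arrays numbered 283, whose Hox genes oppose their labels, so these values cannot decide whether numbers mark pairs. The labels do not say that a number marks an animal, so the fits reported have no block.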

Other observations

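Array 276, a rostral array with both times in its labels, had Ube2c at 5.04, Cdk1 at 6.28 and Pcna at 10.99.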
